A study of Homo sapiens with 24 samples.

Results

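The genes described here encode metalloproteinases that cut the extracellular matrix or the outer parts of membrane proteins, together with the inhibitors that block them. They were taken by name: every gene whose symbol on the array's annotation is MMP, ADAM, ADAMTS or TIMP plus a number and nothing after it, read from probe sets that name 1 gene only, with the probe set of the highest mean over all arrays kept for each gene. This gave 65 genes of the 22395 named genes on the array: 22 MMP, 21 ADAM, 18 ADAMTS and 4 TIMP genes. By the gene table, 63 are protein coding and 2, ADAM5 and ADAM6, are transcribed pseudogenes. ADAM7 and ADAMTS7 are not analysed here.

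The 24 arrays came from 2 human breast cancer cell lines sorted by the Aldefluor assay, in which cells with high aldehyde dehydrogenase activity become fluorescent. SUM159 cells lack the hormone receptors and HER2 and look mesenchymal, whereas T47D cells are luminal and carry the oestrogen receptor. They received 5 µM ID8, a small molecule known as an inhibitor of DYRK kinases, or its vehicle DMSO for 72 hours, and the bright (Aldefluor+) and dim (Aldefluor-) cells were collected. The groups in SUM159 were ID8 Aldefluor+, DMSO Aldefluor+, ID8 Aldefluor- and DMSO Aldefluor-, with 1 array of each from experiments 2, 3 and 4; the same groups in T47D came from experiments 5, 6 and 7. Each sample pooled the cells of 3 flasks, each line is a single established line grown alone on plastic, and every array started from 10 ng of RNA. In sorted populations, fewer cells that express a gene and less RNA per cell cannot be told apart.

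Matrix metalloproteinases (MMPs) are made as inactive precursors and cut collagens, gelatin, laminin and other proteinases once activated. ADAM proteins sit in the cell membrane, where the active ones release growth factors, receptors and adhesion molecules from the surface, while ADAMTS proteins are secreted and cut proteoglycans, procollagens or von Willebrand factor. TIMP proteins are the tissue inhibitors of these enzymes, and in breast tumours much of the MMP protein is known to come from stromal cells and not from the carcinoma cells.

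Promoter sequence from RefSeq (GRCh38.p14) was held for 37 of the 65 genes. Those of ADAMTS1, ADAMTS9 and MMP16, the genes that passed the test below, were not among them. The 250 bases before the annotated start are shown for TIMP3 and TIMP1, inhibitors described below, and for MMP7 and MMP10, secreted enzymes whose signal stayed low. Each runs 5′ to 3′ on the gene's own strand, and capitals mark the motifs that were searched on both strands: the GC box GGGCGG, the TATA box TATAAA and the AP-1 site TGAGTCA.
TIMP3, chr22:32801455-32801704, plus strand: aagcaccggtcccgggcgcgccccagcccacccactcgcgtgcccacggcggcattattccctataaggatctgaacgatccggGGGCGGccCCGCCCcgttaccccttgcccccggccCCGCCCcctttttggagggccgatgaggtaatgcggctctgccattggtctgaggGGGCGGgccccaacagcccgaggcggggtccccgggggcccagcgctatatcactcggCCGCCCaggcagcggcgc
TIMP1, chrX:47582186-47582435, plus strand: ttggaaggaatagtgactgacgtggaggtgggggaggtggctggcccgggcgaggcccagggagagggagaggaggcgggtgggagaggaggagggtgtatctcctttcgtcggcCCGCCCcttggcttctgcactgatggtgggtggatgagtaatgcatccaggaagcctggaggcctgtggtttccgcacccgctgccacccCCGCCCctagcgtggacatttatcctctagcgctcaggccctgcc
MMP7, chr11:102530748-102530997, minus strand: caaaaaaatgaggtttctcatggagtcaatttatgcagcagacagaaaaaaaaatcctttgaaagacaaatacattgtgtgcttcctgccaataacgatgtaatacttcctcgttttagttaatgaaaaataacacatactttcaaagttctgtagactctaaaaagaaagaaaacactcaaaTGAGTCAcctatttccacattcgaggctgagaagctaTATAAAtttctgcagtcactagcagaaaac
MMP10, chr11:102780629-102780878, minus strand: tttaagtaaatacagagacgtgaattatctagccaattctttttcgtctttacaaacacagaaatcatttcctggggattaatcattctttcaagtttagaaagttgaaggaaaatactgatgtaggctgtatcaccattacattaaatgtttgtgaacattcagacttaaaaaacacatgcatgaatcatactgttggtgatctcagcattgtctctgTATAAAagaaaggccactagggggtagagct
The TIMP3 stretch held 5 GC boxes and the TIMP1 stretch held 2, with neither of the other motifs. MMP10 had a TATA box whose first base lay at -31, counted from -1 for the base just before the start. MMP7 had one at -30 and an AP-1 site at -67. Of the 37 promoters, 7 held a TATA box (18.9%, against 11.13% of 27305 promoters of the same length), 24 held a GC box (64.9%, against 42.31%) and 1 held an AP-1 site (2.7%, against 4.16%). Of the 37 genes, 26 had a mean signal below 2 and 11 did not; the TATA box was in 7 of the 26 and 0 of the 11, and the GC box in 15 of the 26 and 9 of the 11. These matches describe letters in the sequence and were not tested against expression.

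The deposited values are log2 signals on which the authors had already adjusted for experiment and processing batch. A signal compares samples for 1 probe set; it does not rank the amounts of different transcripts. Over the 24 arrays 47 of the 65 genes (72.3%) had a mean below 2, a low level where signal over background is small, compared with 49% of all named genes. The 18 genes at or above 2 were ADAM9, ADAM10, ADAM12, ADAM15, ADAM17, ADAM21, ADAM33, ADAMTS2, ADAMTS6, ADAMTS9, ADAMTS12, ADAMTS13, ADAMTS15, MMP2, MMP15, MMP16, TIMP1 and TIMP2. ADAM9 had the highest mean of its family at 7.75 and ADAM20, a testis gene, the lowest at 0.77. In the MMP family MMP2, a gelatinase, was highest at 3.59 and MMP26 lowest at 0.80. ADAMTS9 at 3.90 and ADAMTS5, an aggrecanase, at 0.82 bounded the ADAMTS family, and TIMP1 at 5.61 and TIMP4 at 1.30 the inhibitors.

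Arrays of a group correlated between 0.984 and 0.989 over genes, and no pair of arrays held identical values. One array, SUM159 DMSO Aldefluor+ of experiment 4, was compressed, with an interquartile range of 2.05 against 2.17 to 2.33 for the others, so differences of single genes that use it are followed by their value without it. List means of the line markers went as labelled. The mean of 8 SUM159-typical genes lay between 4.95 and 5.35 on SUM159 arrays and between 4.54 and 4.78 on T47D arrays. That of 10 T47D-typical genes lay between 4.15 and 4.39 on SUM159 arrays and between 4.76 and 4.97 on T47D arrays. The gap varied by gene. Among the T47D-typical genes KRT8 averaged 3.07 ± 0.295 in SUM159 and 3.16 ± 0.463 in T47D. PGR averaged 5.08 ± 0.144 in SUM159 and 6.25 ± 0.0649 in T47D (SD, n = 12 arrays each). Line differences over all genes, given below, are small in the deposited values. The 5 leukocyte and 3 endothelial markers measured had means below 2 over the 12 arrays of each line. CD14, a leukocyte marker, came nearest, at 1.88 ± 0.338 in SUM159 and 1.87 ± 0.231 in T47D (SD). Its mean in a single group can lie above 2. Of the 4 fibroblast markers measured, COL1A1 alone reached 2.

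A gene was called when the adjusted p of limma (Benjamini-Hochberg over all 22395 genes of a comparison, experiment as a block) was under 0.05. In SUM159 Aldefluor- cells, 2 of the 65 genes were called between ID8 and DMSO, both higher (0.277% of all genes were called there, 0.188% higher), and 10 had an unadjusted p under 0.05 (15.4%, against 8.03% of all genes). In T47D with ID8, 1 of the 65, MMP16, was called lower in Aldefluor+ than in Aldefluor- cells (0.366% of all genes were called there, 0.147% lower), and 5 had an unadjusted p under 0.05 (7.69%, against 8.93%). In the other 6 pairs limma called 0 of the 65. The number at an unadjusted p under 0.05 was 6 for ID8 in SUM159 Aldefluor+ cells (9.23% of the 65, against 10.3% of all genes, of which 0.241% were called). It was 5 for the SUM159 fractions with ID8 (7.69%, against 7.52%, with 0.201% called) and 5 for the SUM159 fractions with DMSO (7.69%, against 7.95%, with 0.0223% called). In T47D it was 2 for ID8 in Aldefluor+ cells (3.08%, against 10.8%, with 0.375% called), 4 for ID8 in Aldefluor- cells (6.15%, against 6.6%, with 0.0179% called) and 5 for the fractions with DMSO (7.69%, against 8.96%, with 0.152% called). In these 6 pairs the shares lie near those of all genes or below them, and 46 of the 65 genes (70.8%, against 60.6% of all genes) had no unadjusted p under 0.05 in any of the 8 pairs.

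**Figure D1:**
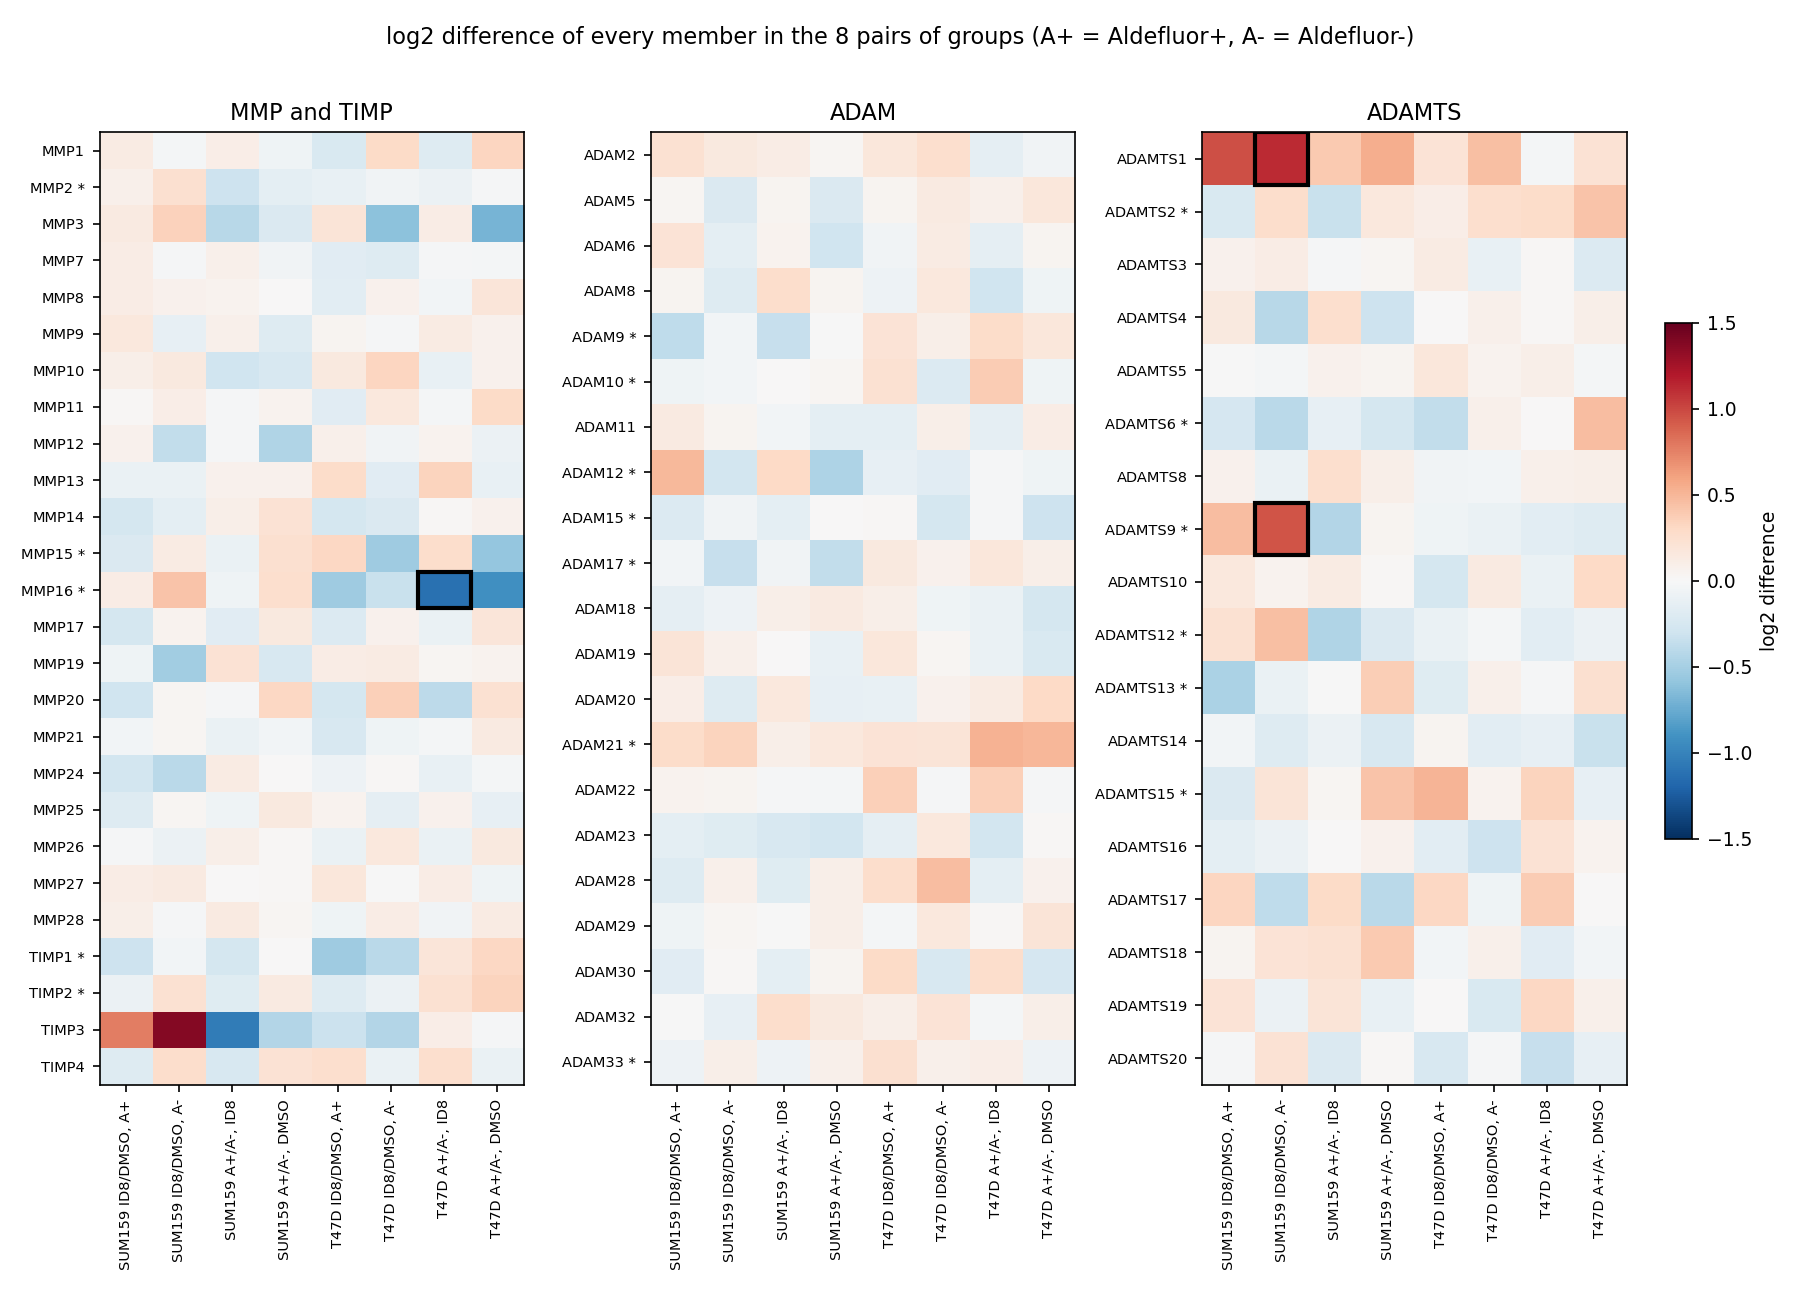
Log2 difference of each of the 65 genes (rows, by family) in the 8 pairs of groups (columns; the group named first minus the other), on one colour scale where red is higher and blue lower in the group named first. Black frames mark the 3 called differences, ADAMTS1 at 1.12, ADAMTS9 at 0.94 and MMP16 at -1.12, and stars mark genes with a mean of at least 2.

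Of the metalloproteinase and inhibitor genes, those called higher with ID8 were ADAMTS genes, and they were called in SUM159 only. ADAMTS1 and ADAMTS9, secreted proteinases that cut the proteoglycans versican and aggrecan, were both higher in SUM159 cells treated with ID8. The mean of ADAMTS1 over the 24 arrays was 1.89, below 2, a low level where signal over background is small. ADAMTS1 had log2 signals of 2.09, 2.17 and 2.57 in ID8 Aldefluor- cells of SUM159, against 1.24, 1.04 and 1.17 in DMSO Aldefluor- cells. In Aldefluor+ cells of SUM159 it had 2.92, 2.66 and 2.41 with ID8, against 1.39, 2.14 and 1.56 with DMSO. Within each fraction all 3 ID8 arrays lay above all 3 DMSO arrays. Here and below, the share of all genes whose groups within a line lie apart was not counted, so such gaps are description only. The difference was 1.12 ± 0.197 (SE) in Aldefluor- cells, a 2.18-fold higher signal (limma adjusted p = 0.0215), and 0.97 ± 0.197 in Aldefluor+ cells, where it missed the threshold (limma adjusted p = 0.0564; 0.89 without the compressed array, limma adjusted p = 0.157). Each experiment by itself gave 0.85, 1.13 and 1.40 in Aldefluor- cells and 1.52, 0.53 and 0.85 in Aldefluor+ cells. Averaged over both fractions, ADAMTS1 rose by 1.05 ± 0.139 (SE; 2.06-fold; limma adjusted p = 0.00106) and was higher in 3 of 3 experiments. Without the compressed array that mean was 1.01 (limma adjusted p = 0.00549). The call in Aldefluor- cells by itself was lost on leaving out experiment 2, 3 or 4 (limma adjusted p = 0.062, 0.139 and 0.254, with differences of 1.26, 1.12 and 0.99), while that on the mean was kept.

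ADAMTS9 had 4.78, 4.72 and 4.77 in SUM159 ID8 Aldefluor- cells, against 3.80, 3.70 and 3.95 in DMSO Aldefluor- cells. In Aldefluor+ cells of SUM159 it had 4.47, 4.19 and 4.29 with ID8, against 3.78, 3.96 and 3.81 with DMSO. The groups of each fraction did not overlap. The difference in Aldefluor- cells was 0.94 ± 0.124 (SE; 1.92-fold; limma adjusted p = 0.00195), and that in Aldefluor+ cells was 0.47 ± 0.124, which did not pass (limma adjusted p = 0.155; 0.43 without the compressed array, limma adjusted p = 0.276). By experiment it was 0.98, 1.02 and 0.82 in Aldefluor- cells and 0.69, 0.23 and 0.48 in Aldefluor+ cells. The mean over fractions rose by 0.70 ± 0.0879 (SE; 1.63-fold; limma adjusted p = 0.000672), or by 0.68 without the compressed array (limma adjusted p = 0.00366). Leaving out experiment 2, 3 or 4 lost the call in Aldefluor- cells (limma adjusted p = 0.0606, 0.0696 and 0.0632) at differences of 0.92, 0.90 and 1.00.

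Whether ID8 acted differently in the fractions was tested as an interaction. For ADAMTS9 the ID8 effect was 0.47 smaller in Aldefluor+ than in Aldefluor- cells of SUM159 (log2 difference of effects -0.47 ± 0.176 SE, limma adjusted p = 0.619), and for ADAMTS1 it differed by -0.16 ± 0.278 (limma adjusted p = 0.954). Without the compressed array these were -0.51 and -0.24 (limma adjusted p = 0.558 and 0.894). Neither passed, so the call in Aldefluor- cells alone does not show a difference between fractions. Limma called 0 of the 65 genes in this interaction in SUM159, with 5 at an unadjusted p under 0.05 (7.69%, against 7.06% of all genes, of which 0.00447% were called).

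**Figure D2:**
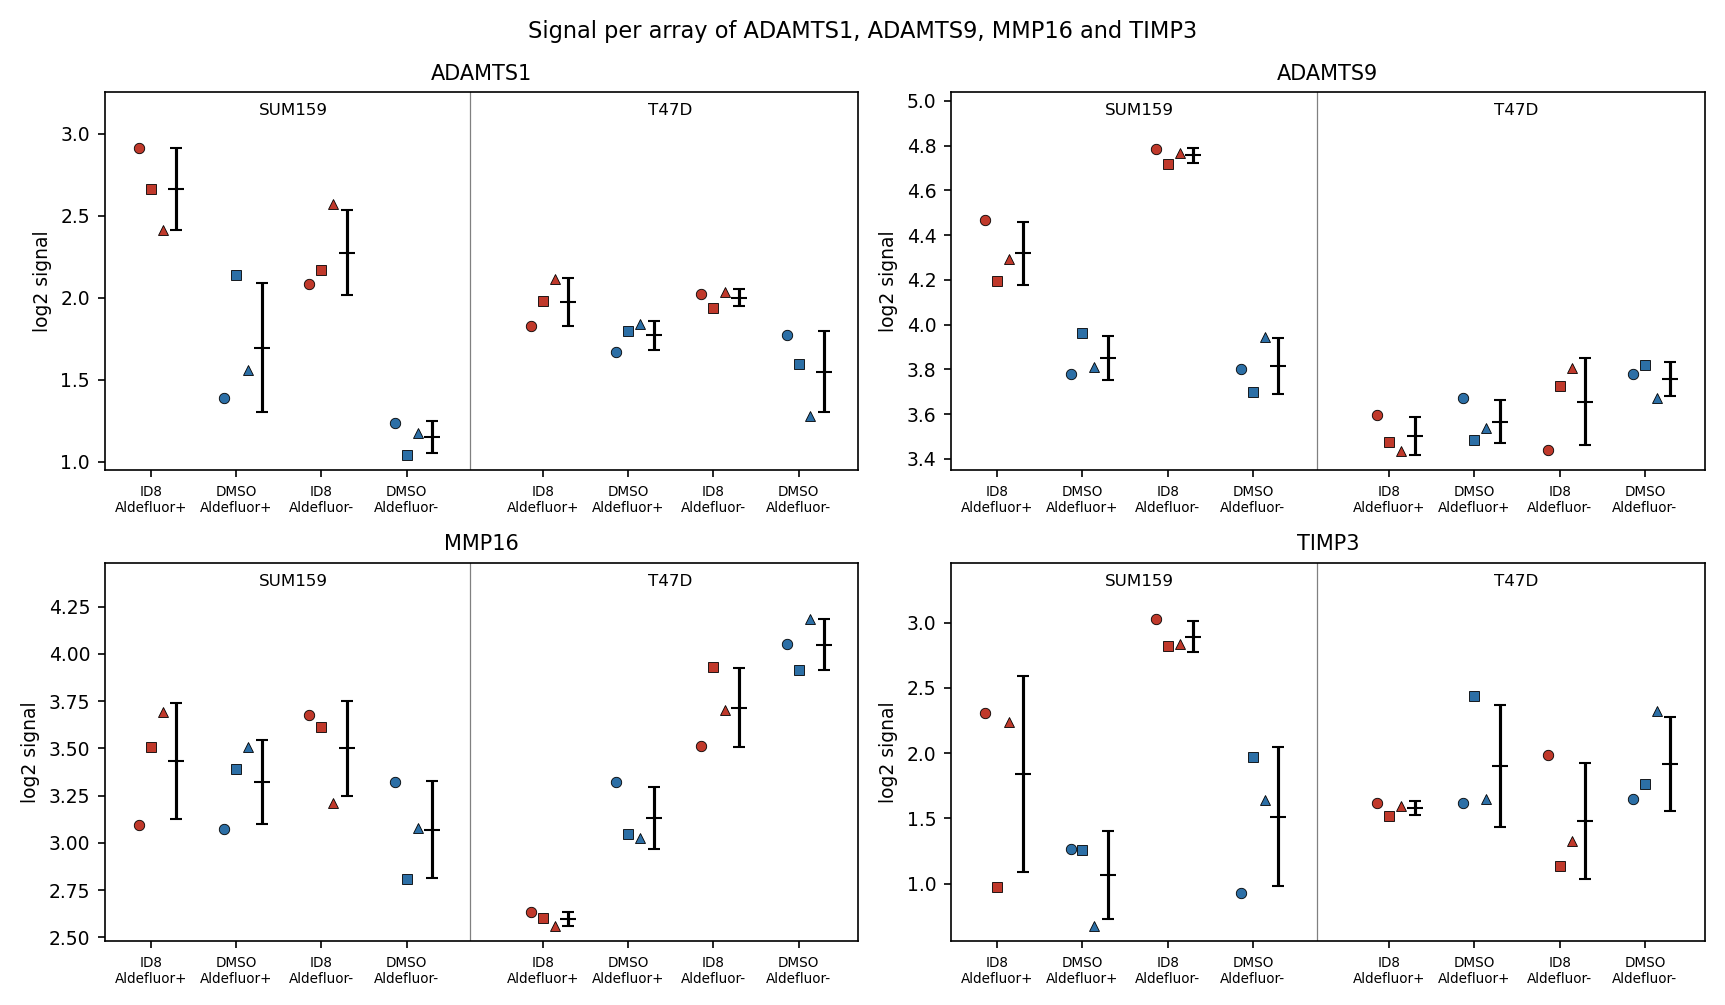
Log2 signal on each of the 24 arrays for ADAMTS1, ADAMTS9, MMP16 and TIMP3 (vertical axis, own range for each gene), by line, treatment and fraction; red points are ID8 and blue points DMSO, the symbols tell the 3 experiments of a line apart, and bars give mean ± SD (n = 3). ADAMTS9 lay between 4.19 and 4.78 on the SUM159 ID8 arrays and between 3.70 and 3.96 on the SUM159 DMSO arrays, and MMP16 was lowest, from 2.56 to 2.64, in T47D ID8 Aldefluor+ cells.

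In T47D neither gene was called with ID8. ADAMTS9 averaged 3.50 ± 0.0844 in ID8 Aldefluor+ cells and 3.57 ± 0.0964 in DMSO Aldefluor+ cells, and 3.66 ± 0.194 in ID8 Aldefluor- cells and 3.76 ± 0.0753 in DMSO Aldefluor- cells (SD, n = 3 each). Its mean ID8 effect there was -0.08 ± 0.0879 (SE, limma adjusted p = 0.805). ADAMTS1 averaged 1.98 ± 0.145 in ID8 Aldefluor+ cells and 1.77 ± 0.0899 in DMSO Aldefluor+ cells, and 2.00 ± 0.0524 in ID8 Aldefluor- cells and 1.55 ± 0.248 in DMSO Aldefluor- cells of T47D. The T47D effect on ADAMTS1 was 0.33 ± 0.139 (SE, limma adjusted p = 0.393), higher in 3 of 3 experiments. Tested directly, the ID8 effect on ADAMTS9 was 0.79 ± 0.124 (SE) larger in SUM159 than in T47D (limma adjusted p = 0.00661), the 1 gene of the 65 called in this comparison (0.647% of all genes were called, 0.263% higher). At an unadjusted p under 0.05 there were 7 of the 65 (10.8%, against 10.9% of all genes). The call was lost without experiment 2, 5 or 6 (limma adjusted p = 0.0647, 0.0516 and 0.0594) and kept without the compressed array (0.77, limma adjusted p = 0.014). The corresponding difference for ADAMTS1, 0.72 ± 0.197 (SE), was not called (limma adjusted p = 0.127; 0.68 without the compressed array, limma adjusted p = 0.176).

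The SUM159-typical markers had lower array means in the same ID8 samples. These were 4.95 to 5.08 in ID8 Aldefluor+ cells, against 5.23 to 5.34 in DMSO Aldefluor+ cells, and 5.19 to 5.23 in ID8 Aldefluor- cells, against 5.27 to 5.35 in DMSO Aldefluor- cells. Averaged over fractions, 3 of the 8 genes had an ID8 effect above 0, and the list's median was -0.15, against -0.01 for all genes. In Aldefluor+ cells 1 of the 8 lay above 0, with a median of -0.24, against -0.01. In Aldefluor- cells, where ADAMTS1 and ADAMTS9 were called, 4 of the 8 did, with a median of -0.03, against -0.01. AXL, a receptor tyrosine kinase, was the 1 marker called, lower with ID8 by 0.62 on the log2 scale (4.19 ± 0.221 with ID8 and 4.81 ± 0.0902 with DMSO, SD, n = 6 arrays each; limma adjusted p = 0.0193). AXL fell by 0.64 when the compressed array was left out (limma adjusted p = 0.0375). The part of this shift in the ADAMTS1 and ADAMTS9 results was not tested.

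Among the other ADAMTS genes none was called in any of the 16 comparisons. ADAMTS12, which cuts cartilage oligomeric matrix protein, had 2.98, 2.87 and 3.15 in SUM159 ID8 Aldefluor- cells, against 2.75, 2.53 and 2.35 in DMSO Aldefluor- cells, a difference of 0.46 ± 0.192 (SE, limma adjusted p = 0.554). ADAMTS13, the proteinase that trims von Willebrand factor, ran the other way in Aldefluor+ cells, with 1.94, 2.24 and 2.12 for ID8 against 2.64, 2.43 and 2.66 for DMSO. Its difference of -0.48 ± 0.125 (SE) did not pass (limma adjusted p = 0.155). Without the compressed array it was -0.44 (limma adjusted p = 0.263). The groups did not overlap, but the share of all genes without overlap was not counted. ADAMTS6, linked to fibrillin microfibrils, had a mean ID8 effect of -0.33 ± 0.131 (SE) in SUM159 (limma adjusted p = 0.336), lower in 3 of 3 experiments, and -0.38 without the compressed array (limma adjusted p = 0.286). ADAMTS2, which removes the amino-terminal propeptide of procollagens, averaged 2.27 in Aldefluor+ and 1.84 in Aldefluor- cells of T47D with DMSO (difference 0.43). ADAMTS15 had its largest difference, 0.51, between ID8 and DMSO in T47D Aldefluor+ cells. ADAMTS5, the neighbour of ADAMTS1 on chromosome 21, stayed between 0.59 and 1.09 on all 24 arrays, and ADAMTS4, the other classical aggrecanase, between 0.94 and 1.90.

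The median ID8 effect of the 18 ADAMTS genes in SUM159, averaged over fractions, was 0.00, against -0.01 for all genes, and 9 of 18 lay above 0. 

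In the MMP family, 1 gene differed between the sorted fractions. MMP16, a membrane-bound MMP able to activate the precursor of MMP2, was lower in the Aldefluor+ cells of T47D. With ID8 it had 2.64, 2.60 and 2.56 in Aldefluor+ cells, against 3.51, 3.93 and 3.70 in Aldefluor- cells. With DMSO it had 3.32, 3.05 and 3.03 in Aldefluor+ cells, against 4.05, 3.91 and 4.18 in Aldefluor- cells. All Aldefluor+ arrays of T47D lay below all its Aldefluor- arrays. The difference was -1.12 ± 0.192 (SE) with ID8, a 2.17-fold lower signal (limma adjusted p = 0.0128), and -0.92 ± 0.192 with DMSO, which missed the threshold (limma adjusted p = 0.0804). Experiments 5, 6 and 7 gave -0.88, -1.33 and -1.14 with ID8 and -0.73, -0.86 and -1.16 with DMSO. Averaged over both treatments MMP16 fell by 1.02 on the log2 scale (SE 0.136; 2.02-fold; limma adjusted p = 0.000905), the 1 gene of the 65 called there (0.875% of all genes were called, 0.371% lower), with 7 at an unadjusted p under 0.05 (10.8%, against 11.1% of all genes). Leaving out experiment 7 moved that limma adjusted p to 0.0504, with a difference of -0.95. The call with ID8 alone was lost without experiment 5, 6 or 7 (limma adjusted p = 0.102, 0.234 and 0.21).

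The T47D-typical markers had overlapping array means in these groups, 4.85 to 4.93 in ID8 Aldefluor+ cells, against 4.89 to 4.94 in ID8 Aldefluor- cells, and 4.76 to 4.85 in DMSO Aldefluor+ cells, against 4.78 to 4.97 in DMSO Aldefluor- cells. Their median difference over both treatments was -0.03, with 2 of 10 above 0 and none called, and the part of this in the MMP16 result was not tested.

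In SUM159, MMP16 averaged 3.43 ± 0.308 in ID8 Aldefluor+ cells and 3.50 ± 0.252 in ID8 Aldefluor- cells, and 3.32 ± 0.224 in DMSO Aldefluor+ cells and 3.07 ± 0.256 in DMSO Aldefluor- cells (SD, n = 3 each). The fractions overlapped and their mean difference was 0.09 ± 0.136 (SE, limma adjusted p = 0.913; 0.05 without the compressed array, limma adjusted p = 0.967). The difference of the Aldefluor effect, SUM159 minus T47D, was 1.11 ± 0.192 (SE, limma adjusted p = 0.0128); MMP16 was the 1 gene of the 65 called in it (0.478% of all genes were called, 0.192% higher), with 7 at an unadjusted p under 0.05 (10.8%, against 9.38%). The call was lost without experiment 3, 4, 5, 6 or 7, at limma adjusted p from 0.0569 to 0.106 and differences from 0.93 to 1.22. It was kept without the compressed array (1.06, limma adjusted p = 0.0298). Within T47D, MMP16 was also low with ID8 in Aldefluor+ cells, by -0.53 ± 0.192 (SE, limma adjusted p = 0.312), and its mean ID8 effect was -0.43 (limma adjusted p = 0.21), lower in 3 of 3 experiments but not called. The group order in T47D was therefore ID8 Aldefluor+, DMSO Aldefluor+, ID8 Aldefluor- and DMSO Aldefluor-, from 2.60 to 4.05, where the neighbours ID8 and DMSO within a fraction did not differ past the threshold.

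**Figure D3:**
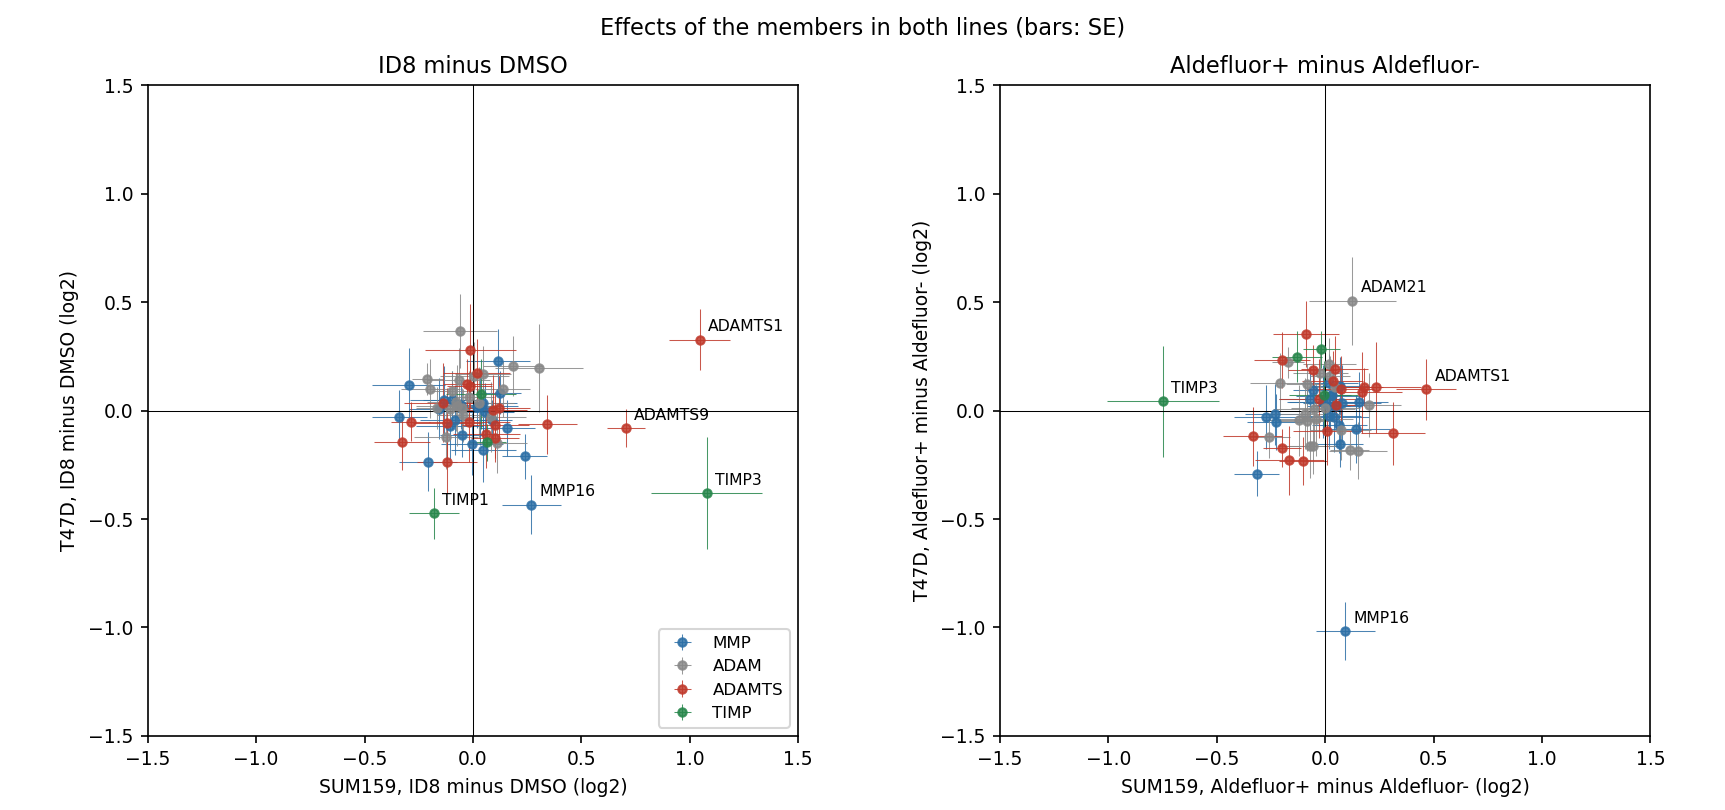
Mean ID8 effect (left) and mean Aldefluor effect (right) of each of the 65 genes, SUM159 on the horizontal and T47D on the vertical axis, as log2 differences with SE bars, coloured by family. Most genes lie near 0 on both axes; ADAMTS9 stands at 0.70 and -0.08 on the left, and MMP16 at 0.09 and -1.02 on the right.

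MMP2, whose precursor MMP16 can activate, was the 1 gene of the 65 whose lines did not overlap. It averaged 3.92 ± 0.212 in SUM159 (3.62 to 4.23) and 3.27 ± 0.216 in T47D (2.90 to 3.53; SD, n = 12 arrays each), 0.65 higher in SUM159. These values are from the probe set with the higher mean of the 2 that name MMP2 alone. Over all genes 182 (0.813%) had lines without overlap, and 35 of the 65 genes had a higher mean in SUM159 than in T47D. The deposited values carry a batch adjustment whose batches are not stated and each experiment used 1 line, so levels between lines are given as a description. The largest line difference of any gene was 1.18 and the median absolute difference over all genes 0.03. The deposited values thus hold little difference between the lines. Near-equal means do not show that the lines make a gene at the same level. MMP2 was called in no comparison, and its largest difference within a line was -0.31 ± 0.184 (SE) between the SUM159 fractions with ID8 (limma adjusted p = 0.763).

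MMP3 and MMP15 shared a pattern in T47D without passing the test. MMP3, a stromelysin that cuts matrix proteins and other MMP precursors, had 0.96, 1.11 and 0.89 in DMSO Aldefluor+ cells, against 1.80, 1.36 and 1.88 in DMSO Aldefluor- cells (difference -0.70 ± 0.147 SE, limma adjusted p = 0.0824). With ID8 it had 1.15, 1.31 and 1.09 in Aldefluor+ cells, against 1.02, 1.13 and 1.05 in Aldefluor- cells. All of these values are below 2. MMP15, a membrane-bound MMP, had 2.07, 1.88 and 2.24 in DMSO Aldefluor+ cells, against 2.63, 2.55 and 2.72 in DMSO Aldefluor- cells (difference -0.58 ± 0.148 SE, limma adjusted p = 0.197), and 2.44, 2.39 and 2.27 in ID8 Aldefluor+ cells, against 2.12, 2.23 and 1.96 in ID8 Aldefluor- cells. For both genes the DMSO Aldefluor- arrays were the highest of T47D. The ID8 effect differed between the fractions by 0.81 ± 0.208 for MMP3 (limma adjusted p = 0.541) and by 0.84 ± 0.21 for MMP15 (SE; limma adjusted p = 0.505). Limma called 0 of the 65 genes, and 0% of all genes, in this interaction, with 3 of the 65 at an unadjusted p under 0.05 (4.62%, against 5.93% of all genes).

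The 9 MMP genes that follow one another on chromosome 11, MMP7, MMP20, MMP27, MMP8, MMP10, MMP1, MMP3, MMP12 and MMP13, include the collagenases, stromelysins and matrilysin best known from invading tissue. Their means over 24 arrays lay between 0.88 and 1.32, and 0 of their 72 differences in the 8 pairs was called by limma, with 5 at an unadjusted p under 0.05 (6.94%, against 8.63% of the differences of all genes in the 8 pairs). On single arrays MMP1, a collagenase, ranged over 0.56 to 1.39, MMP13 over 0.64 to 1.38, MMP7 over 0.70 to 1.57 and MMP10 over 0.89 to 1.86. MMP9, the other gelatinase, lay between 1.03 and 1.50 on all arrays. MMP14, the membrane-type enzyme that activates MMP2 in many cells, lay between 0.96 and 1.91. The values of these genes were too near the low end to show whether they are made in these cells.

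Among the ADAM genes are the well-known sheddases ADAM10 and ADAM17. ADAM10, which releases the Notch and cadherin ectodomains, ranged over 6.76 to 7.30, and ADAM17, which releases tumour necrosis factor and ligands of the EGF receptor, over 5.52 to 6.41. In neither line did ADAM10 or ADAM17 pass the test. ADAM17 had 5.91, 6.03 and 5.86 in SUM159 ID8 Aldefluor- cells, against 6.41, 6.24 and 6.21 in DMSO Aldefluor- cells, a difference of -0.35 ± 0.192 (SE, limma adjusted p = 0.7). ADAM10 had 7.19, 7.23 and 7.30 in T47D ID8 Aldefluor+ cells, against 6.76, 6.92 and 6.90 in ID8 Aldefluor- cells, a difference of 0.38 (limma adjusted p = 0.376). The groups did not overlap in either case, but the share of all genes without overlap in these pairs was not counted.

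ADAM9, a broadly expressed membrane metalloproteinase, had small differences with little spread between arrays. In SUM159 Aldefluor+ cells it had 7.48, 7.34 and 7.51 with ID8, against 7.89, 7.85 and 7.75 with DMSO, a difference of -0.38 ± 0.103 (SE, limma adjusted p = 0.156; -0.45 without the compressed array, limma adjusted p = 0.155). In T47D it had 8.06, 8.00 and 7.94 in ID8 Aldefluor+ cells, against 7.68, 7.64 and 7.84 in ID8 Aldefluor- cells, a difference of 0.28 ± 0.103 (limma adjusted p = 0.411). The Aldefluor effect was -0.17 in SUM159 and 0.22 in T47D, and its difference between lines, -0.39 ± 0.103 (SE), was not called (limma adjusted p = 0.129). Without the compressed array the SUM159 effect was -0.14 and the difference between lines -0.36 (limma adjusted p = 0.704 and 0.205).

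ADAM12, a sheddase often raised in breast tumours, had 3.32, 3.39 and 3.49 in SUM159 ID8 Aldefluor+ cells, against 3.12, 2.85 and 2.77 in DMSO Aldefluor+ cells (difference 0.49 ± 0.196 SE, limma adjusted p = 0.385; 0.37 without the compressed array, limma adjusted p = 0.588). In Aldefluor- cells of SUM159 it had 2.77, 3.28 and 3.27 with ID8, against 3.41, 3.30 and 3.41 with DMSO (difference -0.27, limma adjusted p = 0.797). The effects had opposite signs, and their difference of 0.76 ± 0.277 (SE) was not called (limma adjusted p = 0.615; 0.64 without the compressed array, limma adjusted p = 0.631). ADAM15, an ADAM with an integrin-binding disintegrin domain, averaged 4.30 in T47D DMSO Aldefluor+ cells and 4.61 in DMSO Aldefluor- cells. ADAM33 averaged between 2.50 and 2.74 in all 8 groups. ADAM21, a testis gene, was 0.51 higher on average in Aldefluor+ cells of T47D (limma adjusted p = 0.333), with arrays that overlapped. ADAM8 and ADAM19, membrane enzymes that leukocytes and other cells also make, ranged over 0.78 to 1.54 and 1.16 to 1.83. With ID8 in T47D, averaged over fractions, 17 of the 21 ADAM genes had a difference above 0 (median 0.07, against -0.01 for all genes, of which 48.4% lay above 0), but none was called.

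The inhibitors TIMP1 and TIMP2 gave clear signals on every array. TIMP1, a secreted inhibitor of most MMPs, was lower with ID8 in T47D on every pair of arrays. It had 5.32, 5.55 and 5.16 in ID8 Aldefluor+ cells, against 5.87, 5.89 and 5.87 in DMSO Aldefluor+ cells, and 5.04, 5.22 and 5.21 in ID8 Aldefluor- cells, against 5.57, 5.41 and 5.72 in DMSO Aldefluor- cells. The ID8 groups did not overlap the DMSO groups of the same fraction, but the share of all genes without overlap was not counted. The differences were -0.54 ± 0.165 and -0.41 ± 0.165 (SE), neither of which passed (limma adjusted p = 0.211 and 0.711). The mean over fractions was -0.47 ± 0.117 (SE), lower in 3 of 3 experiments, and was not called (limma adjusted p = 0.0946). TIMP1 was called when only the 11418 genes with a mean of at least 2 were tested. In the fit on all 22395 genes limma called 0 of the 65 (4 at an unadjusted p under 0.05, 6.15%, against 10.9% of all genes, of which 0.505% were called). In SUM159 the mean ID8 effect on TIMP1 was -0.18 ± 0.117 (SE, limma adjusted p = 0.627), and the difference between lines, 0.29 ± 0.165, was not called (limma adjusted p = 0.567). Leaving out the compressed array made these -0.27 and 0.20 (limma adjusted p = 0.342 and 0.691).

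TIMP2, which inhibits MMP2 and also takes part in its activation at the cell surface, was higher in Aldefluor+ than in Aldefluor- cells of T47D. With DMSO it had 5.30, 5.28 and 5.19 in Aldefluor+ cells, against 4.86, 4.96 and 4.95 in Aldefluor- cells, and with ID8 5.09, 4.95 and 5.14 in Aldefluor+ cells, against 4.83, 4.88 and 4.77 in Aldefluor- cells. The fractions did not overlap within either treatment, but the share of all genes without overlap was not counted. The mean difference of 0.28 ± 0.0857 (SE) was not called (limma adjusted p = 0.167). In SUM159 it was -0.02 ± 0.0857 (limma adjusted p = 0.981), and 0.01 without the compressed array (limma adjusted p = 0.993).

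TIMP3, which binds to the matrix and blocks ADAM17 and ADAMTS enzymes as well as MMPs, had the largest difference of any of the 65 genes in a pair but also the widest spread. It had 3.03, 2.82 and 2.83 in SUM159 ID8 Aldefluor- cells, against 0.92, 1.97 and 1.64 in DMSO Aldefluor- cells. In Aldefluor+ cells it had 2.30, 0.98 and 2.24 with ID8, against 1.26, 1.26 and 0.68 with DMSO. The groups were apart in Aldefluor- cells and overlapped in Aldefluor+ cells, where experiment 3 gave the low ID8 value. The difference in Aldefluor- cells was 1.38 ± 0.364 (SE, limma adjusted p = 0.186), that in Aldefluor+ cells 0.77 ± 0.364 (limma adjusted p = 0.484), and the mean 1.08 ± 0.257 (limma adjusted p = 0.069). Without the compressed array the Aldefluor+ difference was 0.50 and the mean 0.94 (limma adjusted p = 0.709 and 0.151). In T47D the mean ID8 effect on TIMP3 was -0.38 ± 0.257 (SE, limma adjusted p = 0.649), and the difference between lines of 1.46 ± 0.364 was not called (limma adjusted p = 0.0906; 1.32 without the compressed array, limma adjusted p = 0.135). TIMP4 stayed between 0.91 and 1.77 on all arrays.

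**Figure D4:**
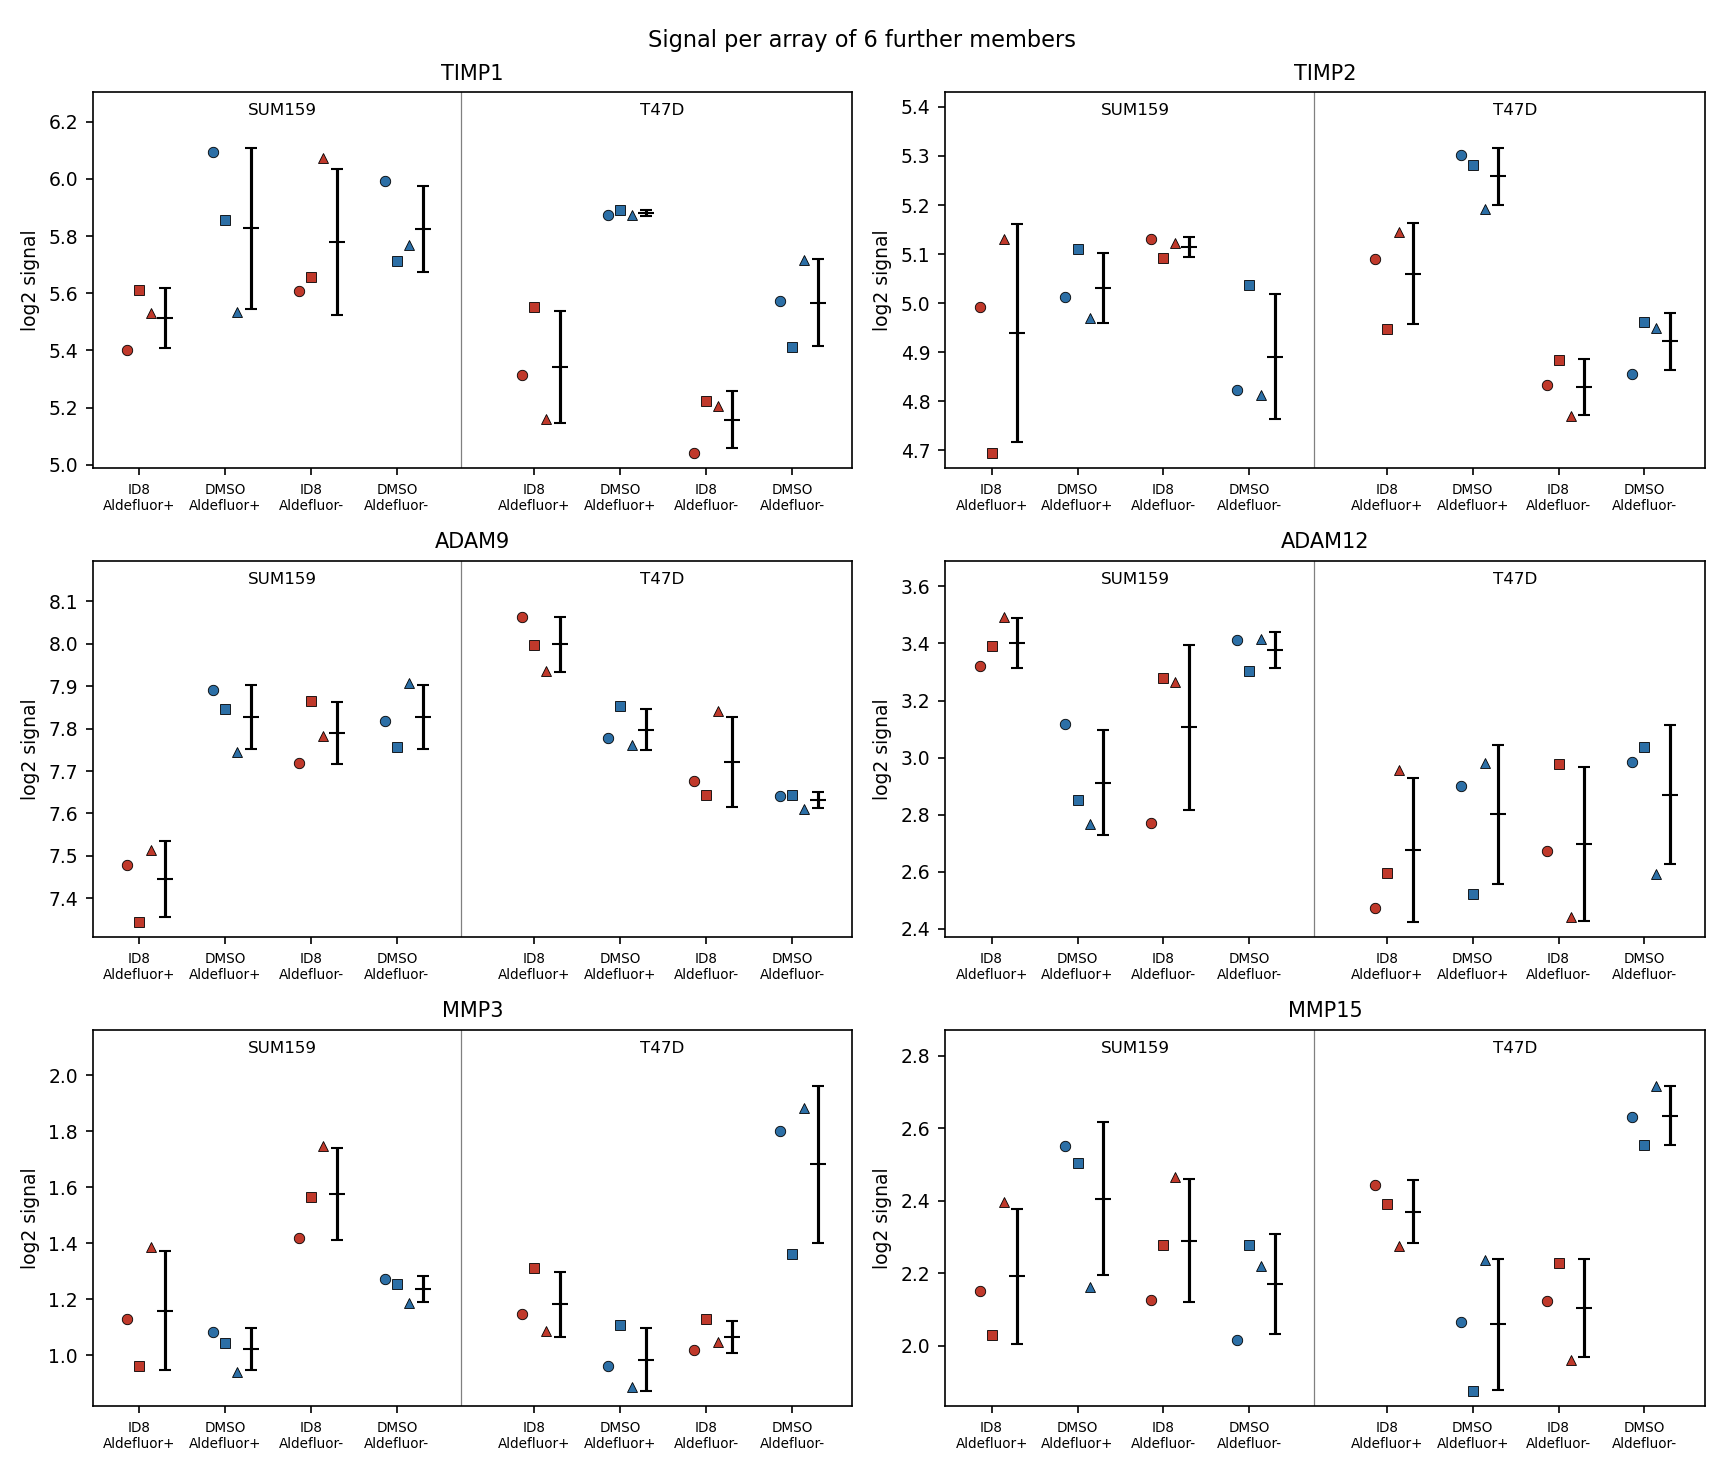
Log2 signal on each of the 24 arrays for TIMP1, TIMP2, ADAM9, ADAM12, MMP3 and MMP15 (vertical axis, own range for each gene), with points, symbols and bars as in the plot of ADAMTS1, ADAMTS9, MMP16 and TIMP3. TIMP1 lay between 5.04 and 5.55 on the T47D ID8 arrays, against 5.41 to 5.89 on the T47D DMSO arrays, and no gene plotted here was called in any comparison.

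Averaged over fractions, 2 of the 65 genes were called with ID8 in SUM159, ADAMTS1 and ADAMTS9 (0.688% of all genes were called, 0.339% higher), with 9 at an unadjusted p under 0.05 (13.8%, against 11.3% of all genes). Averaged over treatments, limma called 0 of the 65 between the SUM159 fractions, with 8 at an unadjusted p under 0.05 (12.3%, against 8.46% of all genes, of which 0.219% were called). TIMP3 had the lowest value there, -0.75 ± 0.257 (SE, limma adjusted p = 0.394), and ADAMTS1 the highest, 0.47 ± 0.139 (limma adjusted p = 0.283). With the compressed array left out, TIMP3 was at -0.61 and ADAMTS1 at 0.51 (limma adjusted p = 0.605 and 0.328). The median absolute ID8 effect in SUM159 was 0.10 for the 65 genes, against 0.11 for all genes, and in T47D 0.08, against 0.11.

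Genes that work with these enzymes were followed as lists. None of the 7 ADAMTS-like genes, 8 other proteinases of the same clan (such as BMP1 and PAPPA), 8 other inhibitors and inducers (such as RECK and BSG), 9 partners of ADAM10 and ADAM17 (tetraspanins, RHBDF1, RHBDF2 and FRMD8) or 6 genes with a longer symbol (such as MMP23B) was called in any of the 16 comparisons. Of the 10 activators and plasminogen-system genes 1 was called, SERPINE2, an inhibitor of thrombin and plasminogen activators. Between the SUM159 fractions 0.201% of all genes were called with ID8 and 0.219% over both treatments. SERPINE2 had a mean of 1.77 in SUM159 and 1.67 in T47D, below 2, where signal over background is small. In SUM159 with ID8 it averaged 1.31 ± 0.179 in Aldefluor+ cells and 2.27 ± 0.215 in Aldefluor- cells (SD, n = 3 each), 1.95-fold lower (limma adjusted p = 0.0446). Over both treatments it fell by 0.76 on the log2 scale in Aldefluor+ cells of SUM159 (limma adjusted p = 0.02), but without the compressed array this call was lost (-0.65, limma adjusted p = 0.0586). COL1A1, a collagen chain that MMPs cut and a fibroblast marker, averaged 2.47 ± 0.0685 in Aldefluor+ cells and 3.16 ± 0.203 in Aldefluor- cells of SUM159 (SD, n = 6 each; difference -0.69, limma adjusted p = 0.0448), a call also lost without the compressed array (-0.70, limma adjusted p = 0.0996). The other 3 fibroblast markers measured had group means below 2.

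The standard error of a difference ran from 0.103 to 0.364 over the 65 genes (median 0.196), and the smallest difference of any gene called in a pair ran from 0.49 for the T47D fractions with ID8 to 1.34 for ID8 in T47D Aldefluor- cells. An uncalled gene is not shown to be the same in both groups.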

How the data were processed

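Expression was measured on 24 Affymetrix Human Gene ST arrays, 3 in each of 8 groups. The authors deposited log2 signals made with robust multiarray averaging (RMA) and adjusted for experiment and processing batch with ComBat, per the labels and the submitters' processing notes. Software versions, ComBat's batches and any protected covariates were not stated in the sources used, and the adjustment can compress differences.

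Of 53617 probe sets, 23871 carried 1 gene symbol, 1842 several and 27904 none in the platform's annotation. The gene number of 22569 was found in the RefSeq table of GRCh38.p14, and its symbol there was used, whether or not it differed. The probe set with the highest mean was kept per gene, leaving 22395 genes. Limma 3.58.1 (R 4.3.3) was run on all of them with a mean for each of 8 groups and, inside a line, a term for experiment, for 16 comparisons: 8 pairs and 8 means or differences of effects. P-values were adjusted by Benjamini-Hochberg within each comparison, and the script was tested on simulated data. Pairs that share a group share its arrays. Experiment numbers pair the samples because the labels say that each marks an experiment of its own. What was left on an array after subtracting its group mean correlated between -0.408 and -0.266 for 36 same-experiment pairs of arrays and between 0.0986 and 0.244 for 72 others of the line, a pattern that removing experiment means gives by itself.

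The members and lists were chosen with earlier results of these data known. Genes named with values were those called in any comparison, the 3 highest and 3 lowest with a mean of at least 2 in each pair, a core of well-known genes, and the highest and lowest of each family; 34 genes met the rule. Other members are listed by name or range. Arrays carry no count depth, so their number limits the precision. Where nothing says otherwise, p-values rest on the spread between the 3 experiments of each line. That spread was pooled over both lines for each gene and moderated by limma with the spread of all genes. Alternatives were a fit without the block, each experiment or the compressed array left out, a fit per line, a filter on low signals, all probe sets, mean probe sets, another variance prior and quantile normalization.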

Additional observations from a re-analysis of the deposited data

Results flagged for a closer look

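A test of the difference between lines singled out 2 genes. The ID8 effect on ADAMTS9, a secreted proteoglycan-cutting proteinase, was larger in SUM159 than in T47D by 0.79 on the log2 scale (limma adjusted p = 0.00661). The Aldefluor effect on MMP16, a membrane-bound MMP, differed between SUM159 and T47D by 1.11 (limma adjusted p = 0.0128), with -1.02 in T47D and 0.09 in SUM159. Each effect was measured within experiments, but each experiment used 1 line. Cell line and set of experiments therefore cannot be told apart, for levels or for these differences of effects between lines. Groups of 3 arrays were too small for a test of single outlying arrays.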

How the results depend on the processing

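No called difference changed sign under any alternative, and the 8 calls were kept in 68 of 88 settings tried. The mean ID8 effects in SUM159 held in all 10 settings for ADAMTS1 (0.98 to 1.16, adjusted p up to 0.0297) and all 11 for ADAMTS9 (0.64 to 0.74, adjusted p up to 0.0427). Calls in single pairs were weaker: leaving out any 1 of the line's experiments took the members called from 2 to a range of 0 to 0 for ID8 in SUM159 Aldefluor- cells, and from 1 to 0 for the T47D fractions with ID8. For ID8 in SUM159 Aldefluor- cells ADAMTS9 alone (1 member) was called with a fit on the line alone, with only genes of mean at least 2, and with all probe sets tested. Leaving out 1 experiment gave 0 to 1 members for the T47D fractions averaged over treatments (0 without experiment 7), for the ID8 effect between lines (0 without experiments 2, 5 or 6) and for the Aldefluor effect between lines (0 without experiments 3, 4, 5, 6 or 7).

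The fit without the replicate block, which counts degrees of freedom that the batch adjustment had used, called 4 members for ID8 in SUM159 Aldefluor+ cells (ADAM9, ADAMTS1, ADAMTS9, ADAMTS13) and 4 for the SUM159 ID8 mean (TIMP3 and ADAMTS13 added). Without the block there were also 3 for the T47D fractions with DMSO (MMP3, MMP15, MMP16), 1 for the T47D ID8 mean (TIMP1), 3 for the T47D Aldefluor mean (ADAM9 and TIMP2 added), 5 for the ID8 effect between lines and 2 for the Aldefluor effect between lines. Testing only genes with a mean of at least 2 gave 1 for the SUM159 ID8 mean (ADAMTS1 falls under the filter), 1 for the T47D fractions with DMSO (MMP16), 1 for the T47D ID8 mean (TIMP1) and 2 for the Aldefluor effect between lines (ADAM9 added). A variance prior with trend and robust fitting gave 2 for ID8 in SUM159 Aldefluor+ cells (ADAM9, ADAMTS1), 1 for the T47D ID8 mean (TIMP1), 2 for the T47D Aldefluor mean, 3 for the ID8 effect between lines (ADAM9, ADAMTS9, TIMP3) and 2 for the Aldefluor effect between lines. Quantile normalization gave 1 for ID8 in SUM159 Aldefluor+ cells (ADAMTS1). By construction the settings differ from the main fit in genes, arrays, degrees of freedom, variance prior or normalization. The shares of all genes called under these settings are not given here, so the counts do not set the 65 genes apart. The causes of these moves were not tested. Signals below 2, which 47 of the 65 genes have, limit what can be seen.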
